A study of Mus musculus with 19 samples.

Results

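The Slc25 genes encode the mitochondrial solute carriers, and 44 of them were measured among 18820 mouse genes. The members were taken by name, as every gene whose symbol in the array annotation is Slc25a followed by a number, leaving out Slc25a1 and Slc25a20. Where a gene had several probe sets with that single symbol, the one with the highest mean over the 19 arrays was used. They were read in 3T3-L1 adipocytes, fat-storing cells obtained in culture from a mouse fibroblast line, kept without serum from day 7.

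Cultures of 4 groups received a fatty acid at 250 µM for 48 h, starting on day 8. The 16-carbon acids were palmitic acid without a double bond (PA, n = 4) and palmitoleic acid with 1 double bond (PMA, titled PMO in the labels, n = 4). The 18-carbon acids were stearic acid without a double bond (SA, n = 4) and oleic acid with 1 double bond (OA, n = 3). Cells that received only the carrier of the acids, 2% albumin with ethanol, were the control (n = 4). A further OA sample was lost at cRNA amplification, per the labels. All groups are cultures of 1 cell line differentiated with Dex, IMBX and insulin and then held in insulin, and the arrays of a group are called biological replicates in the labels, which do not say whether they came from separate differentiations. The p-values below rest on the spread between these arrays.

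The carriers span the inner mitochondrial membrane and exchange metabolites, nucleotides, cofactors and protons between the matrix and the cytosol. In adipocytes they bring ADP and phosphate to ATP synthase, send out the citrate and malate used for fatty acid synthesis, and carry reducing equivalents in the malate-aspartate shuttle. Some members bind calcium outside the membrane through EF-hand domains, namely the aspartate-glutamate carriers Slc25a12 and Slc25a13 and the ATP-Mg/phosphate carriers Slc25a23, Slc25a24 and Slc25a25.

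Values are log2 RMA expression, a level per probe set on a log2 scale, and a difference of 1 would be a doubling. Array medians over all probe sets ranged from 5.23 to 5.43, with correlations of 0.988 to 0.997 from array to array. PMA replicates 1 and 4 had the highest medians of their group (5.41 and 5.35, against 5.24 and 5.27 on the other PMA arrays). PA replicate 2 had the highest median of all arrays, 5.43, and the narrowest interquartile range, 3.39. The adipocyte label was checked with 11 measured markers, whose mean level ran from 11.23 to 11.35 over all acid arrays and from 11.24 to 11.25 in control arrays. SA arrays (11.30 to 11.35) and OA arrays (11.31 to 11.34) lay above all control arrays. PA arrays (11.23 to 11.30) and PMA arrays (11.25 to 11.30) reached the control range. Adipoq, the adipocyte hormone adiponectin, read at least 12.07 on every array. The 8 macrophage markers averaged 4.53 to 4.74 on acid arrays and 4.56 to 4.65 on control arrays. The 9 measured markers of preadipocytes and fibroblasts averaged 10.37 to 10.61 on acid arrays and 10.38 to 10.44 on control arrays, and 1 of them, Col1a1, rose with PMA (0.26, limma, adjusted p = 0.0463). Their mean was above all control arrays on PMA arrays (10.52 to 10.61) and OA arrays (10.48 to 10.54). It reached the control range on PA arrays (10.37 to 10.51) and SA arrays (10.44 to 10.48). The 8 brown fat markers averaged 5.90 to 6.08 on acid arrays and 5.93 to 6.02 on control arrays, and 1 of them, Cidea, rose with OA (0.43, adjusted p = 0.0209). None of the adipocyte and macrophage markers passed against control. Over all genes 0.266% passed with PMA and 0.861% with OA. In bulk RNA, fewer cells of a type and less RNA per cell cannot be told apart.

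None of the 44 carriers changed past the threshold with any of the 4 acids against control (limma, adjusted p under 0.05 over all 18820 genes). Over all genes the share past that threshold was 0% with PA, 0.266% with PMA, 0.165% with SA and 0.861% with OA. The differences of the members were small. They ran from -0.13 (Slc25a24) to 0.20 (Slc25a43) with PA, from -0.04 (Slc25a17) to 0.19 (Slc25a23) with PMA, from -0.12 (Slc25a44) to 0.18 (Slc25a11) with SA and from -0.11 (Slc25a33) to 0.19 (Slc25a42) with OA. The 95% interval of each member, not adjusted for the number of genes, reached at most from -0.30 to 0.42 with PA, -0.19 to 0.35 with PMA, -0.25 to 0.30 with SA and -0.29 to 0.34 with OA. At an unadjusted p under 0.05 the members above control were 3 of 44 with PA (6.82%, against 10.9% of all genes), 12 with PMA (27.3%, against 14.5%), 2 with SA (4.55%, against 5.64%) and 3 with OA (6.82%, against 7.99%). No member was below control at that level, but the share of all genes below control there is not given, so nothing is read from it. At any p, 61.7% of all genes were above control with PA, 78.5% with PMA, 58.1% with SA and 56.7% with OA. The arrays of acid and control did not overlap for 4 members with PA, all higher (9.09%, against 3.9% of all genes), 3 with PMA, all higher (6.82%, against 9.29%), 5 with SA in either direction (11.4%, against 7.39%) and 5 with OA, all higher (11.4%, against 9.72%).

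**Figure D1:**
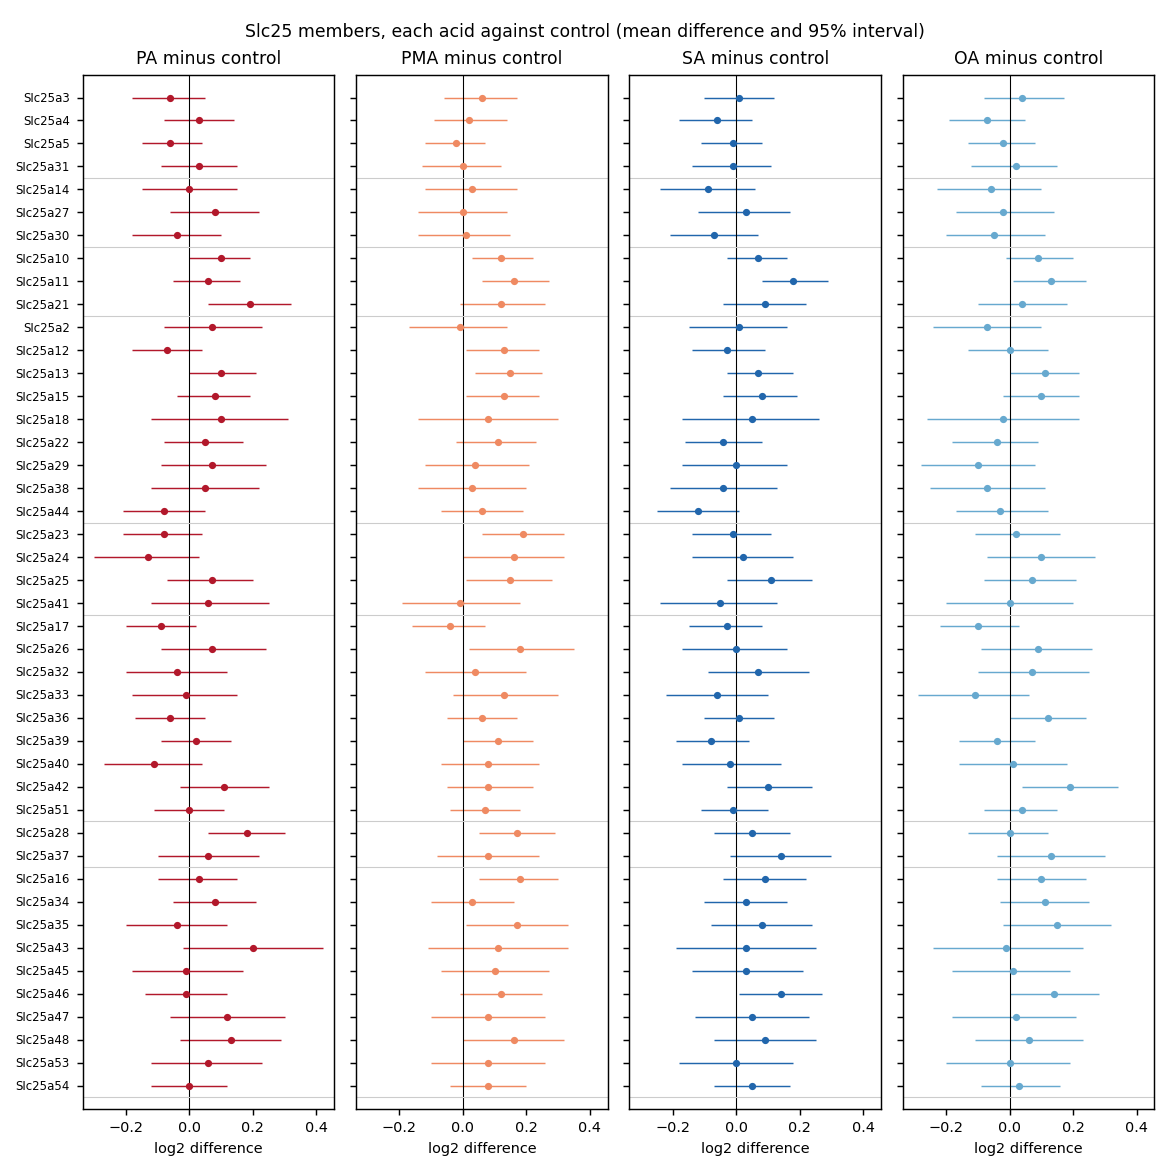
Difference of each Slc25 member from control for PA, PMA, SA and OA (panels), in log2 units on the x axis; points are mean differences from the fit over all 19 arrays, lines are 95% intervals, and grey lines separate the role groups. No member passed an adjusted p of 0.05, and the outermost interval ends are -0.30 (Slc25a24 with PA) and 0.42 (Slc25a43 with PA).

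The PMA count lay above that of all genes, and the PMA arrays also read higher as a whole. With PMA 38 of 44 members were above control (86.4%, against 78.5% of all genes), with a median of 0.08 for the members and 0.06 for all genes. After cyclic loess between arrays these numbers became 31 members above and 13 below, with medians of 0.03 and 0.01. With PA, SA and OA the medians of the members were 0.04, 0.02 and 0.02, beside 0.03, 0.02 and 0.02 for all genes. The mean level of the 44 members above the control mean was 0.15, 0.00, 0.06 and 0.13 on PMA replicates 1 to 4, and that of all genes 0.13, -0.01, 0.02 and 0.09. By this mean, the members were highest on the same 2 PMA arrays as all genes. By the median they were not, as replicate 3 was also high for the members. The member median was 7.61, 7.40, 7.61 and 7.60 on PMA replicates 1 to 4, and the all-gene median 6.08, 5.93, 5.97 and 6.06.

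**Figure D2:**
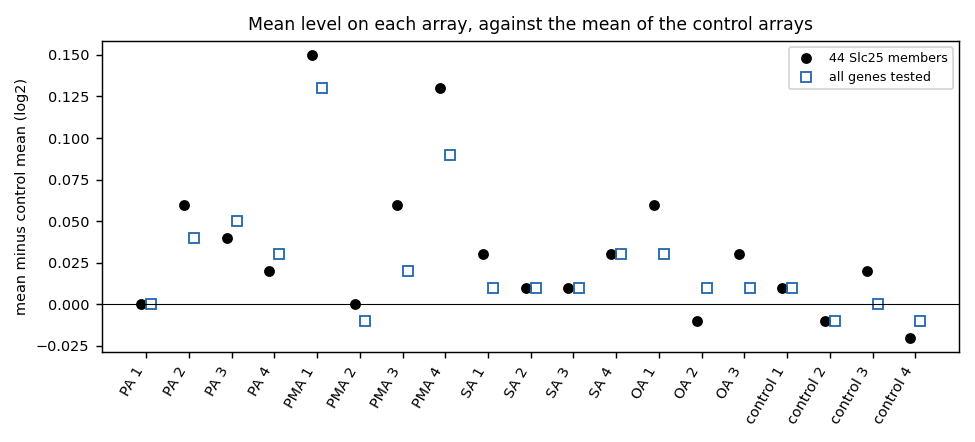
Mean level on each of the 19 arrays minus the mean of the control arrays (log2, y axis), for the 44 Slc25 members (filled circles) and all 18820 genes (open squares). PMA replicates 1 and 4 stand highest for both, at 0.15 and 0.13 for the members.

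Promoter sequences are shown for 2 members on which the results turn, Slc25a23, which held the single call between acids, and Slc25a11, which had the smallest p against control with SA and with PMA. RefSeq (GRCm38.p6) gave a window of 300 bases, 250 before the transcription start and 50 after it, for 34 of the 44 members. The Slc25a23 window is chr17:57059814-57060113 on the minus strand, the first of 2 listed starts, and the Slc25a11 window is chr11:70646990-70647289 on the minus strand. Both are written 5′ to 3′, with matches to the GC box and the CCAAT box in capitals.

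Slc25a23: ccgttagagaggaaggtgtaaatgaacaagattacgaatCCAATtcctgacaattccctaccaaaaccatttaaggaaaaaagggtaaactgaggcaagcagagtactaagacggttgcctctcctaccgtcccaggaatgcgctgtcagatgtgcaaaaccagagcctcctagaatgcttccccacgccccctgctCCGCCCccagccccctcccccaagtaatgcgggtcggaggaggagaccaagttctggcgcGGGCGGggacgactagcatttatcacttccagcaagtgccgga

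Slc25a11: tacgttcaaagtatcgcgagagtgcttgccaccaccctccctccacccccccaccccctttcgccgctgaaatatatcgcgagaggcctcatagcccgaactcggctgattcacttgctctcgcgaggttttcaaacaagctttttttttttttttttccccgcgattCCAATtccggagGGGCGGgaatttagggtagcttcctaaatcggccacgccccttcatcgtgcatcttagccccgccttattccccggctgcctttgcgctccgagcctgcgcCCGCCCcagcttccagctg

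Each window held 2 matches to the GC box (GGGCGG on either strand, bound by Sp1) and 1 to the CCAAT box (CCAAT on either strand, bound by NF-Y). The GC box was found in 28 of the 34 members' windows (82.4%) and in 35.9% of the windows of all 27025 genes in the table. The CCAAT box was in 16 (47.1%, against 37.9%). The E-box (CACGTG) was in 5 (14.7%, against 7.24%), and the motif of NRF1, a regulator of nuclear genes for mitochondria, GCGC, any base and then TGCGC, was in 2 (5.88%, against 4.78%). TCAAGGTCA, the element of the estrogen-related receptors, and a pair of AGGTCA copies 1 base apart, that of PPAR with RXR, were not found in these windows of the members, against 0.407% and 0.0444% of all windows. The 27025 genes are all those with a window, not the 18820 measured. They were not matched to the members for gene type, level or base content. These matches describe the letters of the windows and were set against no difference between groups.

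The carriers that feed and empty ATP synthase stayed close to control. Slc25a4 and Slc25a5 are the ADP/ATP carriers of most tissues, Slc25a31 is the form of the testis, and Slc25a3 imports phosphate. Of these 4, none passed with any acid, and the differences ran from -0.07 to 0.06. Slc25a4 read 10.66, 10.70, 10.64 and 10.58 in PA cells, 10.70, 10.55, 10.61 and 10.70 in PMA cells, 10.61, 10.62, 10.49 and 10.49 in SA cells and 10.49, 10.63 and 10.52 in OA cells, against 10.61, 10.64, 10.67 and 10.54 in control cells. Slc25a5 read 11.80, 11.81, 11.87 and 11.78 in PA cells, 11.85, 11.83, 11.83 and 11.89 in PMA cells, 11.91, 11.91, 11.81 and 11.80 in SA cells and 11.81, 11.83 and 11.90 in OA cells, against 11.91, 11.86, 11.83 and 11.88 in control cells. In both genes the arrays of every acid overlapped those of control. The 95% interval for Slc25a5 was -0.15 to 0.04 with PA and -0.11 to 0.08 with SA. Slc25a5 has 3 probe sets, and the 2 not used gave differences between -0.05 and 0.02. Processed copies of this gene could share its probes, so its level is uncertain.

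Carriers of dicarboxylates were above control with every acid in their group means, without a call. This was not particular to them, as Slc25a13, Slc25a15 and Slc25a16 were also above control with every acid. Of all genes 61.7% were above control with PA, 78.5% with PMA, 58.1% with SA and 56.7% with OA. Slc25a11 exchanges oxoglutarate for malate in the malate-aspartate shuttle, Slc25a10 exchanges malate and succinate for phosphate and is abundant in white fat, and Slc25a21 carries oxoadipate. Slc25a11 read 10.45, 10.41, 10.48 and 10.33 in PA cells, 10.55, 10.54, 10.47 and 10.55 in PMA cells, 10.56, 10.57, 10.48 and 10.57 in SA cells and 10.52, 10.39 and 10.55 in OA cells, against 10.29, 10.39, 10.42 and 10.34 in control cells. All PMA and SA arrays lay above all control arrays, while PA and OA arrays overlapped them. The difference was 0.18 ± 0.05 with SA (SE from limma, adjusted p = 0.179), 0.16 ± 0.05 with PMA (adjusted p = 0.139), 0.13 ± 0.05 with OA (adjusted p = 0.351) and 0.06 ± 0.05 with PA (adjusted p = 0.593). These comparisons share the control arrays. The SA value passed with a trended, robust spread (adjusted p = 0.0476), where 0.521% of all genes passed. The OA value passed with array weights (0.16, adjusted p = 0.0449), where 6.31% of all genes passed.

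Slc25a10 read 11.55, 11.56, 11.60 and 11.60 in PA cells, 11.67, 11.52, 11.57 and 11.65 in PMA cells, 11.55, 11.55, 11.53 and 11.56 in SA cells and 11.62, 11.52 and 11.58 in OA cells, against 11.53, 11.50, 11.47 and 11.43 in control cells. Only the PA arrays lay wholly above the control arrays, and the differences were between 0.07 and 0.12, with adjusted p from 0.209 to 0.773 by limma. Slc25a21, one of the 6 members among the dimmest 1 in 3 of all genes by mean level, read 3.75, 3.94, 3.71 and 3.73 in PA cells, 3.83, 3.57, 3.75 and 3.72 in PMA cells, 3.69, 3.78, 3.65 and 3.63 in SA cells and 3.67, 3.62 and 3.61 in OA cells, against 3.53, 3.64, 3.68 and 3.53 in control cells. Its difference with PA was 0.19 ± 0.06 (limma, adjusted p = 0.23), the highest array being PA replicate 2, without which it was 0.13.

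Among the 9 amino acid carriers, 0 passed with any acid. Slc25a13, citrin, moves aspartate out of mitochondria in exchange for glutamate, as does its paralog Slc25a12, aralar. Slc25a13 read 6.27, 6.37, 6.39 and 6.27 in PA cells, 6.47, 6.32, 6.29 and 6.37 in PMA cells, 6.31, 6.29, 6.28 and 6.29 in SA cells and 6.41, 6.29 and 6.29 in OA cells, against 6.24, 6.21, 6.24 and 6.20 in control cells. Every one of the 15 acid arrays lay above every control array, which held for 1 of the 44 members and, in the upward direction, for 0.372% of all genes. Each acid alone fell short of the threshold, with 0.15 ± 0.05 for PMA (limma, adjusted p = 0.174), 0.11 ± 0.05 for OA (adjusted p = 0.446), 0.10 ± 0.05 for PA (adjusted p = 0.326) and 0.07 ± 0.05 for SA (adjusted p = 0.778).

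Slc25a44, a carrier of branched-chain amino acids described in brown fat, read 8.91, 9.07, 9.07 and 8.92 in PA cells, 9.12, 9.02, 9.22 and 9.19 in PMA cells, 9.03, 8.89, 8.89 and 9.00 in SA cells and 9.07, 8.93 and 9.15 in OA cells, against 9.09, 8.98, 9.14 and 9.09 in control cells. The arrays of every acid overlapped those of control, and the difference with SA was -0.12 ± 0.06 (limma, adjusted p = 0.645). The ornithine carrier Slc25a15 was 0.13 higher with PMA (adjusted p = 0.271), and the glutamate carrier Slc25a22 and the glycine carrier Slc25a38, needed for heme synthesis, differed from control by -0.07 to 0.11. Slc25a2, Slc25a18 and Slc25a29 differed by -0.10 to 0.10, and the first 2 are also among the dimmest genes.

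The iron carriers of the inner membrane are the mitoferrins Slc25a37 and Slc25a28. Slc25a28 read 8.41, 8.62, 8.48 and 8.61 in PA cells, 8.56, 8.39, 8.54 and 8.58 in PMA cells, 8.45, 8.36, 8.40 and 8.41 in SA cells and 8.40, 8.25 and 8.39 in OA cells, against 8.38, 8.32, 8.34 and 8.35 in control cells. The arrays of both 16-carbon acids lay above all control arrays, and those of the 18-carbon acids overlapped them. The difference was 0.18 ± 0.06 with PA (limma, adjusted p = 0.225) and 0.17 ± 0.06 with PMA (adjusted p = 0.166), beside 0.05 with SA and 0.00 with OA. SA against PA differed by -0.13 (adjusted p = 0.281) and OA against PMA by -0.17 (adjusted p = 0.482), so a difference between the chain lengths was not called. Without PA replicate 1 the PA difference became 0.22 and passed (adjusted p = 0.0461), as did 2.71% of all genes. Slc25a37 was 0.14 above control with SA and 0.13 with OA (adjusted p = 0.67 and 0.62).

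Of 9 measured carriers of cofactors, nucleotides and glutathione, 0 passed against control. Slc25a42 imports coenzyme A, and read 8.48, 8.45, 8.45 and 8.40 in PA cells, 8.60, 8.28, 8.31 and 8.50 in PMA cells, 8.45, 8.55, 8.32 and 8.45 in SA cells and 8.58, 8.49 and 8.51 in OA cells, against 8.44, 8.33, 8.25 and 8.33 in control cells. The 3 OA arrays lay above all control arrays (0.19 ± 0.07, limma, adjusted p = 0.271), and the PMA arrays split into a high and a low pair. Slc25a36, a carrier of pyrimidine nucleotides, read 9.77, 9.61, 9.80 and 9.78 in PA cells, 9.82, 9.85, 9.86 and 9.90 in PMA cells, 9.83, 9.73, 9.92 and 9.78 in SA cells and 9.95, 9.89 and 9.92 in OA cells, against 9.86, 9.83, 9.72 and 9.80 in control cells. Its OA arrays also lay above control (0.12 ± 0.06, limma, adjusted p = 0.423), and its dimmer probe set differed by 0.11.

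Slc25a33, its paralog for pyrimidine nucleotides, read 7.91, 7.70, 8.03 and 7.84 in PA cells, 8.19, 7.90, 7.93 and 8.06 in PMA cells, 7.88, 7.79, 7.81 and 7.82 in SA cells and 7.88, 7.62 and 7.82 in OA cells, against 7.74, 8.05, 7.92 and 7.84 in control cells. The control arrays held both a low and a high value, and no acid stood apart from them. Slc25a26, which imports S-adenosylmethionine, was 0.18 above control with PMA (limma, adjusted p = 0.252). Slc25a17, a peroxisomal member of the family, was below control with each acid, with differences of -0.10 to -0.03 and adjusted p from 0.408 to 0.94. Slc25a39, needed for mitochondrial glutathione, Slc25a40, Slc25a32 and the NAD carrier Slc25a51 differed by -0.11 to 0.11.

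The ATP-Mg/phosphate carriers, which load mitochondria with adenine nucleotides when cytosolic calcium rises, held the single call of the family. Slc25a23 was lower with PA than with PMA. It read 5.93, 6.02, 5.84 and 5.94 in PA cells and 6.27, 6.05, 6.22 and 6.29 in PMA cells, beside 6.03, 5.92, 6.06 and 6.00 in SA cells, 6.08, 5.98 and 6.06 in OA cells and 6.07, 5.90, 5.99 and 6.11 in control cells. All 4 PA arrays lay below all 4 PMA arrays, and both groups overlapped control. The difference of PA from PMA was -0.28 ± 0.06 (limma, adjusted p = 0.0327, 95% interval -0.40 to -0.15). It was the 1 member of 44 past the threshold there (2.27%), where 0.962% of all genes passed and 0.855% passed as lower.

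The call for Slc25a23 rested on several arrays. It ended without PA replicate 4, PMA replicate 1, PMA replicate 3 or PMA replicate 4, with adjusted p = 0.0973, 0.102, 0.0809 and 0.126 in turn, while the difference was -0.28, -0.26, -0.27 and -0.25. In these settings 0.26%, 0.409%, 0.473% and 0.393% of all genes passed, beside 0.962% with all arrays. With only the PA and PMA arrays in the fit the difference was -0.28 (adjusted p = 0.235), and 0.117% of all genes passed. An unplanned check left out PMA replicates 1 and 4 together, the PMA arrays with the highest medians. There the difference was -0.20 (adjusted p = 0.299), and 0.159% of all genes passed. After cyclic loess the difference was -0.26 and passed (adjusted p = 0.0209), as did 0.606% of all genes. Against control, Slc25a23 differed by -0.08 ± 0.06 with PA (adjusted p = 0.5) and by 0.19 ± 0.06 with PMA (adjusted p = 0.15).

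The mean level of the 9 measured preadipocyte and fibroblast markers was 10.37 to 10.51 on PA arrays and 10.52 to 10.61 on PMA arrays, and of the 9 markers 8 did not pass, 0 were called higher and 1 lower with PA, the matrix protein gene Dpt (-0.25, limma, adjusted p = 0.0218). Over all genes 0.962% passed between PA and PMA. The adipocyte marker mean was 11.23 to 11.30 on PA arrays and 11.25 to 11.30 on PMA arrays. The part of these cells in the Slc25a23 result was not tested.

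2 other EF-hand carriers were lower with PA than with PMA without a call, Slc25a24 and Slc25a12. Slc25a24, the ATP-Mg/phosphate carrier of many cell types, read 7.97, 7.62, 8.01 and 7.96 in PA cells and 8.11, 8.22, 8.30 and 8.10 in PMA cells, beside 8.14, 7.91, 8.08 and 8.04 in SA cells, 8.13, 8.10 and 8.15 in OA cells and 7.94, 8.16, 8.06 and 7.93 in control cells. Slc25a12 read 8.59, 8.79, 8.78 and 8.70 in PA cells and 8.98, 8.89, 8.96 and 8.80 in PMA cells, beside 8.82, 8.71, 8.69 and 8.79 in SA cells, 8.79, 8.76 and 8.79 in OA cells and 8.79, 8.81, 8.81 and 8.72 in control cells. In both genes every PA array lay below every PMA array, by little in Slc25a12. The differences were -0.29 ± 0.08 (limma, adjusted p = 0.0633) and -0.20 ± 0.05 (adjusted p = 0.0752). Both passed, with Slc25a23, when the dimmest 1 in 3 of all genes was left out, with a trended, robust spread, and without PA replicate 3. In these settings 3.43%, 2.6% and 3.39% of the genes tested passed, beside 0.962% with all arrays and genes. PA replicate 2 was low for Slc25a24, and without it the difference was -0.20 (adjusted p = 0.191).

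**Figure D3:**
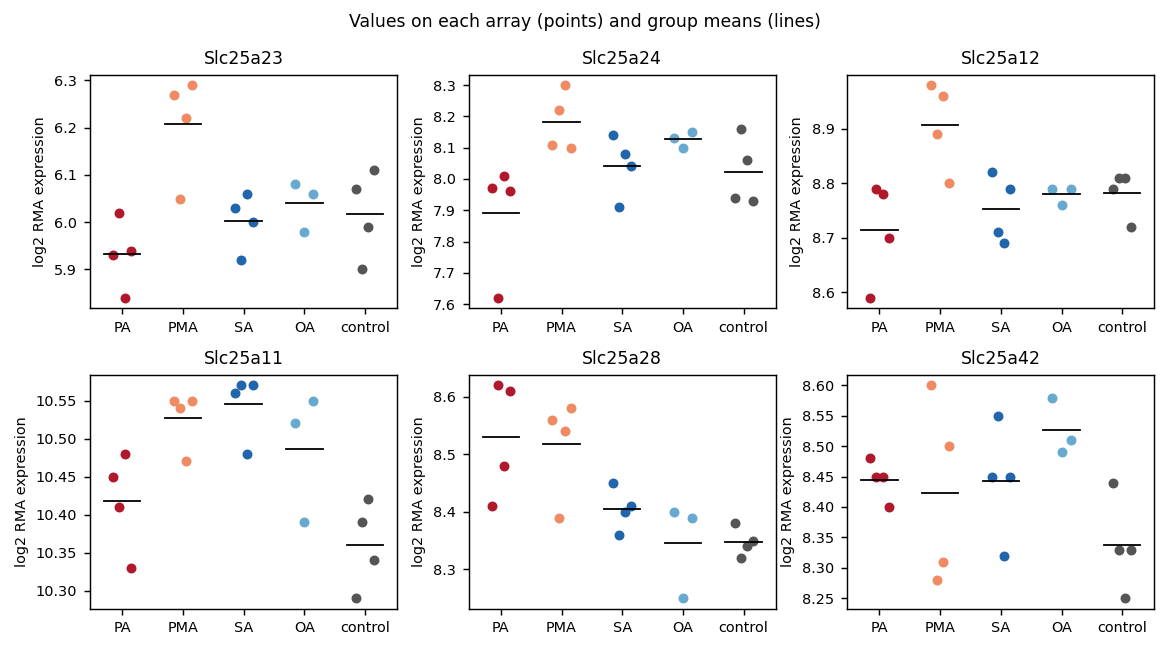
Log2 RMA expression (y axis) of 6 members on each array, by group; points are arrays (n = 4, OA n = 3) and lines are group means. For Slc25a23, Slc25a24 and Slc25a12 the PA points lie below all PMA points, for Slc25a11 the PMA and SA points lie above all control points, and Slc25a28 is high with PA and PMA.

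The other EF-hand carriers gave smaller differences between PA and PMA. Slc25a25 differed by -0.08 (limma, adjusted p = 0.554) and Slc25a13 by -0.04 (adjusted p = 0.702). Slc25a25 read 6.73, 6.74, 6.87 and 6.74 in PA cells, 6.93, 6.74, 6.79 and 6.93 in PMA cells, 6.77, 6.76, 6.77 and 6.91 in SA cells and 6.79, 6.65 and 6.85 in OA cells, against 6.81, 6.59, 6.62 and 6.78 in control cells. Its groups overlapped in every comparison. Slc25a41, a relative that lacks the calcium-binding domain, differed by 0.07 between PA and PMA.

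The double bond was compared at both chain lengths, and the chain length with and without the double bond, all at 250 µM and 48 h. At 16 carbons, PA against PMA, 10 of 44 members were lower with PA at an unadjusted p under 0.05 (22.7%, against 14.5% of all genes). At that level 0 members were higher, and the share of all genes higher there is not given. At any p, 31.8% of the members and 38.8% of all genes were higher with PA. The groups did not overlap for 5 members (11.4%, against 7.09% of all genes), again all lower with PA: Slc25a12, Slc25a23, Slc25a24, Slc25a36 and Slc25a40. The probe set used for Slc25a40, whose protein is a paralog of the glutathione-related Slc25a39, differed by -0.20 and its dimmer one by -0.03. For Slc25a36 these were -0.12 and -0.20. The median of the members was -0.05 and that of all genes -0.03, and after cyclic loess they were -0.01 and 0.00. Of the PA and PMA intervals, 37 of 44 lay within 0.3 on either side of 0.

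At 18 carbons, SA against OA, 0 members passed with limma, as did 0.0319% of all genes, and 0 members had an unadjusted p under 0.05, against 2.4% of all genes. The smallest p was that of Slc25a36 (-0.11 ± 0.06, adjusted p = 1), whose dimmer probe set differed by -0.03. The interval of 43 of 44 members lay within 0.3 on either side of 0. For Slc25a23 the difference of SA from OA was -0.04, with an interval of -0.17 to 0.10. The effect of the double bond on Slc25a23, taken as the acid with it minus the acid without it, was 0.24 ± 0.09 larger at 16 than at 18 carbons (limma, adjusted p = 0.929, unadjusted p = 0.0152), so the response at the 2 chain lengths was not shown to differ. No member passed that comparison, and 0.00531% of all genes did. For the saturated against the monounsaturated acids together, Slc25a23 differed by -0.16 ± 0.05 (adjusted p = 0.137) and no member passed (0.553% of all genes did), while with array weights Slc25a23 passed at -0.17 (adjusted p = 0.0392), as did 1.35% of all genes.

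**Figure D4:**
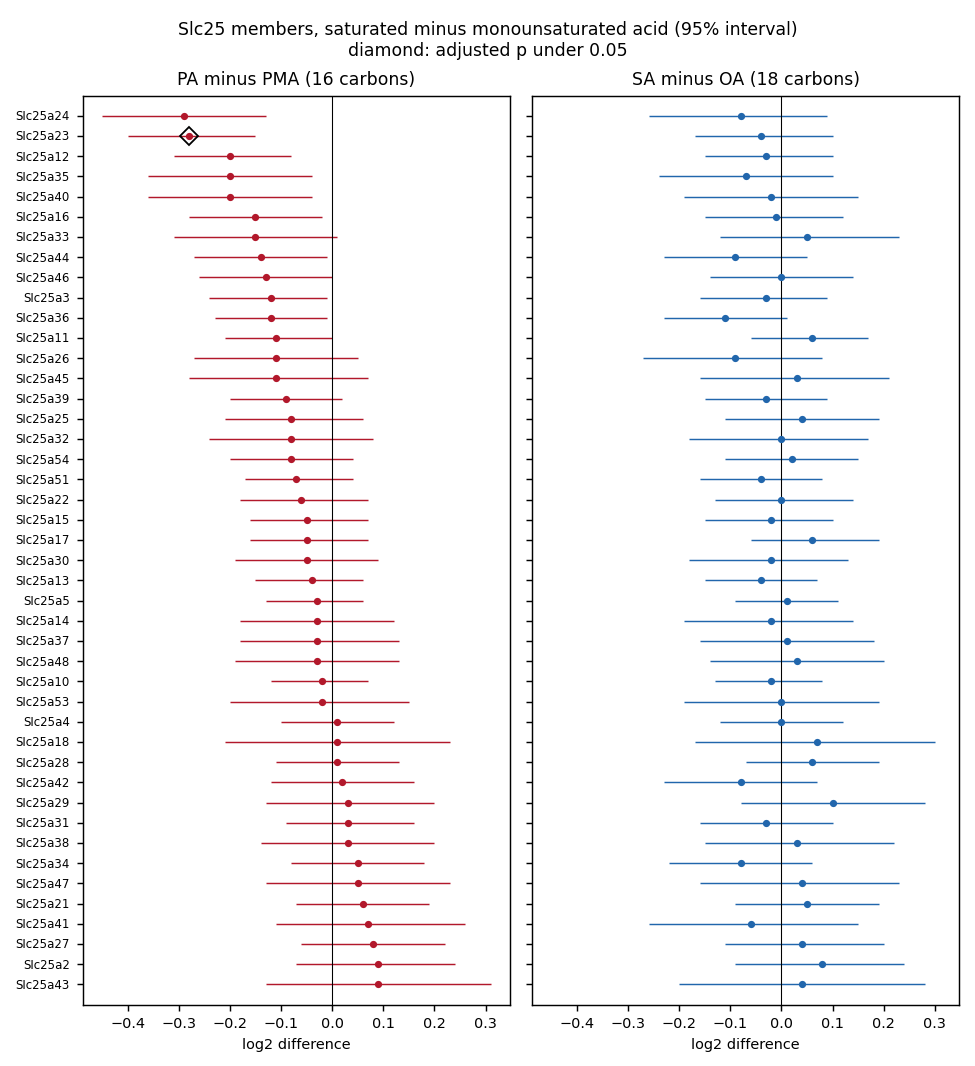
Saturated minus monounsaturated acid for each member, PA minus PMA (left) and SA minus OA (right), in log2 units on the x axis, with 95% intervals as lines, ordered by the left panel. The diamond marks Slc25a23, at -0.28 in the left panel, and in the right panel the differences run from -0.11 to 0.10.

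With 2 more carbons no member passed either. SA against PA called 0 of 44 members, beside 0.143% of all genes, and 3 members had an unadjusted p under 0.05 (6.82%, against 15.8% of all genes). The smallest p was that of Slc25a11, 0.13 ± 0.05 higher with SA (limma, adjusted p = 0.257, 95% interval 0.02 to 0.23). OA against PMA called 0 of 44, beside 0.0531% of all genes, and 6 members were lower with OA at an unadjusted p under 0.05 (13.6%, against 7.5%). At that level 0 members were higher, and the share of all genes higher there is not given. At any p, 18.2% of the members and 29.2% of all genes were higher with OA. The median of the members was -0.06 and that of all genes -0.04, and after cyclic loess they were -0.02 and 0.00. Slc25a33 was lowest, at -0.25 ± 0.08 (adjusted p = 0.482). With single arrays left out its difference ran from -0.30 to -0.17, and it was -0.19 without PMA replicate 1, where its p was largest.

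Of the 10 carriers that shape mitochondria or whose substrate is unsettled, 0 passed against control. Slc25a46 sits in the outer membrane and acts in mitochondrial shape and lipid transfer. It read 9.14, 8.80, 9.10 and 9.09 in PA cells, 9.13, 9.23, 9.09 and 9.20 in PMA cells, 9.16, 9.23, 9.16 and 9.18 in SA cells and 9.17, 9.25 and 9.13 in OA cells, against 9.00, 9.13, 9.02 and 9.02 in control cells. All SA arrays lay above all control arrays, and PA replicate 2 lay below them. SA differed by 0.14 ± 0.06 and OA by 0.14 ± 0.07 (limma, adjusted p = 0.546 and 0.445). A second, dimmer probe set of Slc25a46 gave 0.10 with SA and 0.29 with PA, where the one used gave -0.01 with PA, so the probe sets of this gene disagree for PA. Slc25a16 and Slc25a35 were 0.18 and 0.17 above control with PMA (adjusted p = 0.17 and 0.293), and Slc25a43 was 0.20 above with PA (adjusted p = 0.356). The relatives of the uncoupling proteins, Slc25a14, Slc25a27 and Slc25a30, differed by -0.09 to 0.08.

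The gene relatives outside the naming rule gave 0 calls among 6 measured. Slc25a1, the citrate carrier, was 0.11 above control with OA and 0.10 with SA (limma, adjusted p = 0.323 and 0.465). Slc25a20, the carnitine-acylcarnitine carrier, was 0.07 above control with OA and 0.08 with SA. Ucp1, the uncoupling protein of brown fat, read 3.75 to 4.17 on acid arrays and 3.88 to 3.97 on control arrays. Ucp3, Mtch1 and Mtch2 differed from control by -0.04 to 0.16. Ucp2 and Slc25a52 were not analysed here.

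Genes that work beside the carriers were called in a few cases. Of 13 enzymes and carriers of the malate-aspartate, citrate and pyruvate routes 0 passed with any acid, with citrate synthase, Cs, 0.17 and pyruvate carboxylase, Pcx, 0.11 above control with OA (limma, adjusted p = 0.19 and 0.329). Of 12 amino acid and carnitine enzymes 1 rose with OA and 0 fell, where 0.861% of all genes passed. The 1 called was Crat, carnitine acetyltransferase, 0.24 ± 0.05 higher (limma, adjusted p = 0.0295). Of the same 12, Cpt1a, which commits fatty acids to mitochondrial import, was lower with PA than with PMA (-0.22 ± 0.05, limma, adjusted p = 0.0422). In that comparison 0.962% of all genes passed.

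Of 15 genes of the outer membrane pores and of protein import, the route by which carriers reach the inner membrane, 0 rose and 2 fell with OA. Over all genes 0.861% passed with OA and 0.266% with PMA. Tomm20, a receptor of the outer membrane translocase, fell with OA (-0.31 ± 0.07, limma, adjusted p = 0.0423) and with PMA (-0.32 ± 0.07, adjusted p = 0.0463). Tomm7, a small subunit of the same translocase, fell with OA (-0.36 ± 0.08, adjusted p = 0.0485). Of 8 iron-sulfur and heme genes and 8 regulators of mitochondrial biogenesis 0 passed against control with any acid, with Hfe at -0.10, Fech at 0.11, Gabpa at 0.23 and Ppargc1a at 0.10 with OA (adjusted p = 0.708, 0.709, 0.252 and 0.647).

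The spread between arrays of a group was of the size of most differences. The median SD of the members was 0.0926 with PA, 0.0959 with PMA, 0.0671 with SA, 0.0807 with OA and 0.0688 in control cells, beside 0.106, 0.0897, 0.0791, 0.0726 and 0.075 for all genes. OA replicate 2 was the lowest OA array for 30 of the 44 members, and PMA replicate 2 the lowest PMA array for 22. The 44 members kept their symbols when their gene identifiers were looked up in the annotation of GRCm38.p6.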

How the data were processed

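RNA of 19 samples (100 ng each, RNA integrity number above 9, per the labels) was hybridised to Affymetrix Mouse Gene ST arrays. The deposited values are log2 RMA expression for 35556 probe sets, and R 2.15.0, affy 1.34.0 and RMA are named in the submitters' processing notes. Probe sets with a single gene symbol (21218, with 1881 of several symbols and 12457 unnamed left out) gave 18820 genes by the brightest probe set, with no filter on low values. Group means were estimated from all 19 arrays by limma 3.58.1 under R 4.3.3 (lmFit and eBayes). It gave 9 two-sided contrasts with Benjamini-Hochberg adjustment over all genes. The contrast of the double bond at 16 and 18 carbons was added after seeing the data. The fit was run on simulated data, where recovery was required only for changes the size of a doubling. All member differences here were smaller, so that run does not vouch for them. Errors written with ± are standard errors from the model. Members and gene lists were chosen with earlier results of these data known. Values per array are given for members past the threshold, those with the smallest p per comparison and 7 chosen by role, with Slc25a24, and Slc25a12 between PA and PMA, added after their values were seen. Of list genes, those past the threshold are named, or the 2 with the smallest p in OA. Replicate numbers showed no sign of pairing the arrays. Deviations of same-numbered arrays correlated at -0.43 to 0.40, with 6 of 36 pairs over 0.1. Those of differently numbered arrays correlated at -0.54 to 0.50, with 19 of 108 pairs over 0.1. The labels give no batch or date. Precision is limited by how many arrays each group has. Alternatives left out the dimmest genes, averaged probe sets, used cyclic loess, a trended robust spread, array weights, a replicate block or only the arrays compared, and left out each array in turn.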

Additional observations from a re-analysis of the deposited data

Results flagged for a closer look

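Among 68 sets of 4 arrays tested (the 16 members with values per array and the mean of the 44 members, in PA, PMA, SA and control), 7 held 1 array far from the rest. For unselected, independent sets chance would give about 1 in 20, or 3.4 sets. Many of the 16 members were picked by their values here and all share the same arrays, so the 7 cannot be judged by that number. Slc25a24 read 7.62 on PA replicate 2, against 7.96 to 8.01 on the other PA arrays. Slc25a46 read 8.80 on PA replicate 2, against 9.09 to 9.14 on the other PA arrays, and Slc25a36 read 9.61 there, against 9.77 to 9.80. Slc25a25 read 6.87 on PA replicate 3, against 6.73 to 6.74 on the others, and 6.91 on SA replicate 4, against 6.76 to 6.77. Slc25a11 read 10.48 on SA replicate 3, against 10.56 to 10.57 on the other SA arrays. Slc25a46 read 9.13 on control replicate 2, against 9.00 to 9.02 on the other control arrays.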

How the results depend on the processing

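The count of members past the threshold was 0 against control in every comparison, and it became 1 with SA under a trended, robust spread (Slc25a11, beside 98 of all genes), 1 with OA under array weights (Slc25a11, beside 1188), and 0 to 1 with PA when single arrays were left out (1 without PA replicate 1, Slc25a28, beside 510). For PA against PMA the count of 1, beside 181 of all genes, became 3 when the dimmest genes were left out (beside 430) and 3 with a trended, robust spread (beside 489), 0 with only the arrays compared (beside 22), and 0 to 3 when single arrays were left out. It was 3 without PA replicate 3 (beside 638) and 2 without PA replicate 1 (beside 447). It was 0 without PA replicate 4 (beside 49) or PMA replicates 1 (beside 77), 3 (beside 89) or 4 (beside 74), so calls also fell over all genes there. Leaving out PA replicates 2 and 4 together gave 0 (beside 54, Slc25a23 at -0.32, adjusted p = 0.0794). Leaving out PMA replicates 1 and 4 together also gave 0 (beside 30, Slc25a23 at -0.20). Both pairs were unplanned, chosen after seeing the data. For the saturated against the monounsaturated acids array weights gave 1 (beside 255). The replicate block changed no count: with it PA against PMA kept 1 call, Slc25a23 at -0.28 (limma, adjusted p = 0.0307). The medians of the members moved by less than the SD of that median between replicates, 0.0805, in every alternative. The main medians ran only from -0.06 to 0.08, so this SD was too wide a yardstick to show that they were stable. The PMA median went from 0.08 to 0.03 after cyclic loess. Signs turned only for differences near 0: Slc25a4 with PMA (0.02) became -0.01 after cyclic loess, 0.00 to 0.06 with single arrays left out and -0.04 without PMA replicates 1 and 4, Slc25a5 with SA (-0.01) became 0.00 with averaged probe sets and at most 0.01 with single arrays left out, Slc25a12 with OA (0.00) stayed 0.00 with array weights and ran from -0.02 to 0.01 with single arrays left out, and Slc25a44 with OA (-0.03) became 0.01 with array weights and ran from -0.08 to 0.04. The cause of these changes was not tested.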
